A study of Mus musculus with 2 samples.

Results

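The 10 genes Kdr, Flt1, Pecam1, Cdh5, Tie1, Tek, Egfl7, Emcn, Esam and Cldn5, which mark the endothelial cells that line blood vessels, were followed in mouse ureters of embryonic stage E14.5 as a measure of vessel content. Their probes were all those, present on both arrays and not control probes, whose accession belongs to a transcript of these genes. This gave 11 probes, 2 for Kdr and 1 for each of the other genes, of 39429 measured. All 11 were well above background in both channels of both arrays, as were 64.3% to 71.6% of all spots per channel. Every defining marker was thus detected in every RNA, which by itself does not show the cell type it came from.

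Ureters labelled knockout carried Tbx18(cre/+) and were Tbx2(fl/fl) with Tbx3(fl/fl). Control ureters were Tbx18(+/+) with 1 floxed allele each of Tbx2 and Tbx3 (fl/?), the other allele being unspecified, and all were of strain NMRI. The Tbx18 locus drove Cre in progenitors of the ureteric mesenchyme, not in endothelium by design, and the controls had no Cre. Each of the 2 two-colour arrays compared such a pair. The red dye (AlexaFluor647) marked the RNA labelled knockout in the female pair, replicate 1, and the control RNA in the male pair, replicate 2, so that sex and dye cannot be told apart. The sources do not state how many embryos each RNA holds. The precision of what follows is limited by the number of arrays.

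Endothelial cells sense VEGF through the receptor tyrosine kinases VEGFR2 (Kdr) and VEGFR1 (Flt1), and angiopoietins through TIE2 (Tek) with its partner TIE1. They adhere to each other through VE-cadherin (Cdh5), PECAM1, ESAM and claudin-5 (Cldn5). In the ureter, vessels lie in the mesenchymal coat around the epithelium, and smooth muscle forms in the inner layer of that coat.

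Kdr and Flt1 encode the receptor pair that binds VEGF, and their promoters are shown because their probes had the first and the third highest mean ratio among the 9 probes that were higher in both pairs. Sequences are from RefSeq on GRCm38.p6, 5′ to 3′ on the strand of the gene, and cover the 250 bases before the annotated start. Capitals mark GGAA, the core of the motif bound by ETS factors, on either strand (read as TTCC on the other).
Kdr promoter, chr5:75978456-75978705, minus strand: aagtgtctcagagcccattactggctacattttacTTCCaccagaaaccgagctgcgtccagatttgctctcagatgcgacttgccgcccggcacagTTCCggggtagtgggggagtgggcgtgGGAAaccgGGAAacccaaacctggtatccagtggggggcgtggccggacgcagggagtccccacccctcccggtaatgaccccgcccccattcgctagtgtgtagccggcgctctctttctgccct
Flt1 promoter, chr5:147726012-147726261, minus strand: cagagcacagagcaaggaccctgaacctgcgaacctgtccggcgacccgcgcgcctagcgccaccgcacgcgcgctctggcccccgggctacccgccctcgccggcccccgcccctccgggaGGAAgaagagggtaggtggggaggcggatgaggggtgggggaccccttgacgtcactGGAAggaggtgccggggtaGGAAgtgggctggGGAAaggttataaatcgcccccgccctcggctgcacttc
Both windows held 4 matches. A window was found for 7 of the 10 genes, 9 windows in all, 3 of them for Egfl7. Of these, 8 of 9 windows held GGAA on either strand, with a median of 4 matches, against 93.4% of all 32851 promoter windows of the same length, with a median of 3. AGATAA, a core bound by GATA factors, was searched on both strands as well and was found in 0 of the 9 windows and in 9.99% of all windows. A match is a description of letters only.

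Egfl7 is also the host gene of the endothelial microRNA miR-126. Its sequence is shown because the host gene had the widest gap between the pairs, with the seed (bases 2 to 8) in capitals.
mmu-miR-126a-3p, chr2:26591402-26591423, plus strand: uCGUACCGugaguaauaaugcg
The microRNA itself was not analysed here.

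The targeted genes were read first as a check of the labels. Tbx3 had a log2 intensity of 14.07 (female pair) and 14.06 (male pair) in ureters labelled knockout, against 15.23 and 15.08 in controls, a mean log2 ratio of -1.09 ± 0.10 (SD, n = 2 pairs, limma adjusted p = 0.000623). Tbx2 went against the label. It had 13.06 and 12.89 in ureters labelled knockout, against 12.12 in both controls, a mean log2 ratio of 0.86 ± 0.12 (SD, n = 2 pairs, limma adjusted p = 0.00184). The sources do not state whether the Tbx2 probe lies in the deleted part of the gene. Tbx18, whose locus drives Cre, had a mean log2 ratio of 0.15 ± 0.0011 (SD, n = 2 pairs, limma adjusted p = 0.394). Every direction below is that of the RNAs as labelled.

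Endothelial markers as a group lay slightly above controls in ureters labelled knockout, and no single probe passed the test. Of the 11 probes, 9 were higher in the RNA labelled knockout in both pairs, which was so for 27.6% of all 25934 probes tested. The other 2, Egfl7 and Esam, went opposite ways in the 2 pairs, and 0 probes were lower in both. The median log2 ratio over the 11 probes was 0.13 (female pair 0.11, male pair 0.21), against -0.0015 over all probes tested. The mean ratios ran from 0.086 for Tie1 to 0.32 for Egfl7. In limma's moderated test with Benjamini-Hochberg adjustment over all probes, 0 of the 11 passed an adjusted p of 0.05, while 1.88% of all probes passed as higher and 1.92% as lower. Before adjustment, 3 of the 11 (the brighter Kdr probe, Flt1 and Pecam1) had p under 0.05, all as higher, and 7.27% of all probes tested did so as higher and 6.57% as lower. In these whole-organ RNAs, fewer or more endothelial cells cannot be told apart from less or more RNA per cell.

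**Figure D1:**
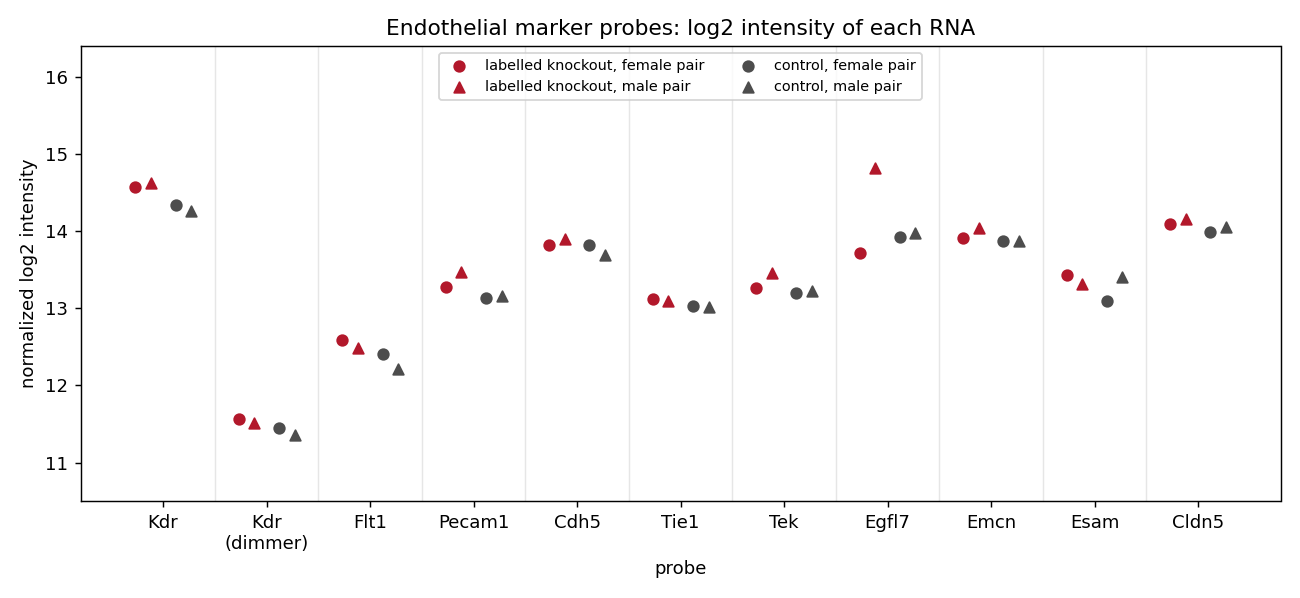
Normalized log2 intensity (y axis) of each of the 11 probes (x axis) in the RNAs labelled knockout (red) and control (grey); circles are the female pair and triangles the male pair. For 9 probes both red points lie above both grey points, as at 17.5% of all probes tested, and Egfl7 and Esam overlap. Levels are not comparable between probes.

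Both VEGF receptors were higher in the RNAs labelled knockout in both pairs, without passing the test. The brighter Kdr probe had log2 intensities of 14.57 (female pair) and 14.63 (male pair) in ureters labelled knockout, against 14.34 and 14.26 in controls. Both RNAs labelled knockout were above both controls. Its log2 ratio was 0.23 (female pair) and 0.36 (male pair), on average 0.30 ± 0.094 (SD, n = 2 pairs), or 1.23-fold with a 95% interval of 1.09 to 1.38 and a limma adjusted p of 0.0912. It was the lowest adjusted p among the members, and at a threshold of 0.1, which 2.84% of all probes passed as higher, this probe alone was called. The dimmer Kdr probe had 11.57 and 11.51 in ureters labelled knockout, against 11.45 and 11.36 in controls. Its mean log2 ratio was 0.13 ± 0.024 (SD, n = 2 pairs, limma adjusted p = 0.485), which is 0.11 (female pair) and 0.21 (male pair) below the brighter probe. The probes of this gene thus had the same sign and unequal size.

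Flt1, which encodes a high-affinity VEGF receptor that also acts as a decoy, had 12.59 and 12.49 in ureters labelled knockout, against 12.41 and 12.21 in controls. The groups did not overlap. Its log2 ratio was 0.18 and 0.27 in the female and male pair, on average 0.22 ± 0.067 (SD, n = 2 pairs), or 1.17-fold with an interval of 1.04 to 1.31 (limma adjusted p = 0.186).

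The angiopoietin receptors were also higher in both pairs, and neither passed the test. Tek had 13.26 and 13.46 in ureters labelled knockout, against 13.20 and 13.22 in controls, with a log2 ratio of 0.063 (female pair) and 0.24 (male pair). Its mean of 0.15 ± 0.12 (SD, n = 2 pairs, limma adjusted p = 0.481) had a 95% interval from -0.029 to 0.33. Tie1, an orphan receptor that pairs with TIE2, had 13.12 and 13.09 in ureters labelled knockout, against 13.03 and 13.01 in controls. Its ratios of 0.092 and 0.079 were nearly equal in the pairs, and its mean of 0.086 ± 0.0090 (SD, n = 2 pairs, limma adjusted p = 0.748) was the lowest of the 11. For both genes the groups did not overlap, and the differences were small.

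Of the junction genes, Pecam1 had the highest ratio among those with 1 direction. This immunoglobulin-family adhesion molecule had 13.28 and 13.47 in ureters labelled knockout, against 13.14 and 13.16 in controls. Its log2 ratio was 0.14 (female pair) and 0.32 (male pair), on average 0.23 ± 0.13 (SD, n = 2 pairs), or 1.17-fold with an interval of 1.03 to 1.33 (limma adjusted p = 0.216). The RNAs labelled knockout were above both controls.

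Cdh5, the cadherin of endothelial adherens junctions, had 13.82 and 13.90 in ureters labelled knockout, against 13.82 and 13.69 in controls. In the female pair its log2 ratio was 0.0081, with 2 of its 4 spots above 0, and in the male pair it was 0.21, with all 4 spots above 0. The mean of 0.11 ± 0.14 (SD, n = 2 pairs, limma adjusted p = 0.694) was smaller than the spread between the pairs. Cldn5, the main claudin of endothelial tight junctions, had 14.09 and 14.16 in ureters labelled knockout, against 13.98 and 14.06 in controls. Its ratios of 0.11 and 0.10 were the closest of any member, with a mean of 0.10 ± 0.0033 (SD, n = 2 pairs, limma adjusted p = 0.645).

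Esam, an adhesion molecule of endothelial tight junctions and platelets, had 13.43 and 13.32 in ureters labelled knockout, against 13.10 and 13.40 in controls. The groups overlapped. Its log2 ratio was 0.33 (female pair) and -0.083 (male pair), with all 4 spots above 0 in the first and 0 of 4 in the second. The mean was 0.12 ± 0.29 (SD, n = 2 pairs, limma adjusted p = 0.782).

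Emcn, a sialomucin of venous and capillary endothelium, had 13.91 and 14.05 in ureters labelled knockout, against 13.87 in both controls. Its log2 ratio was 0.032 in the female pair, where 3 of 4 spots were above 0, and 0.17 in the male pair, on average 0.10 ± 0.10 (SD, n = 2 pairs, limma adjusted p = 0.693).

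Egfl7, a secreted protein that endothelial cells lay down around forming vessels, had the highest mean ratio and the widest spread. It had 13.72 (female pair) and 14.82 (male pair) in ureters labelled knockout, against 13.93 and 13.97 in controls. The male RNA labelled knockout was the highest of the 4 and the female RNA labelled knockout the lowest, while the controls were close together. Its log2 ratio was -0.20 (female pair) and 0.85 (male pair), a mean of 0.32 ± 0.75 (SD, n = 2 pairs, limma adjusted p = 0.666) with a 95% interval from -0.19 to 0.84. All 4 spots were below 0 in the female pair, between -0.22 and -0.19, and all 4 were above 0 in the male pair, between 0.83 and 0.88, so the spots of each array agreed closely while the arrays did not. In red over green, both arrays were negative for Egfl7 (-0.20 and -0.85) and both were positive for Esam (0.33 and 0.083). The part of the dyes in these values was not tested.

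**Figure D2:**
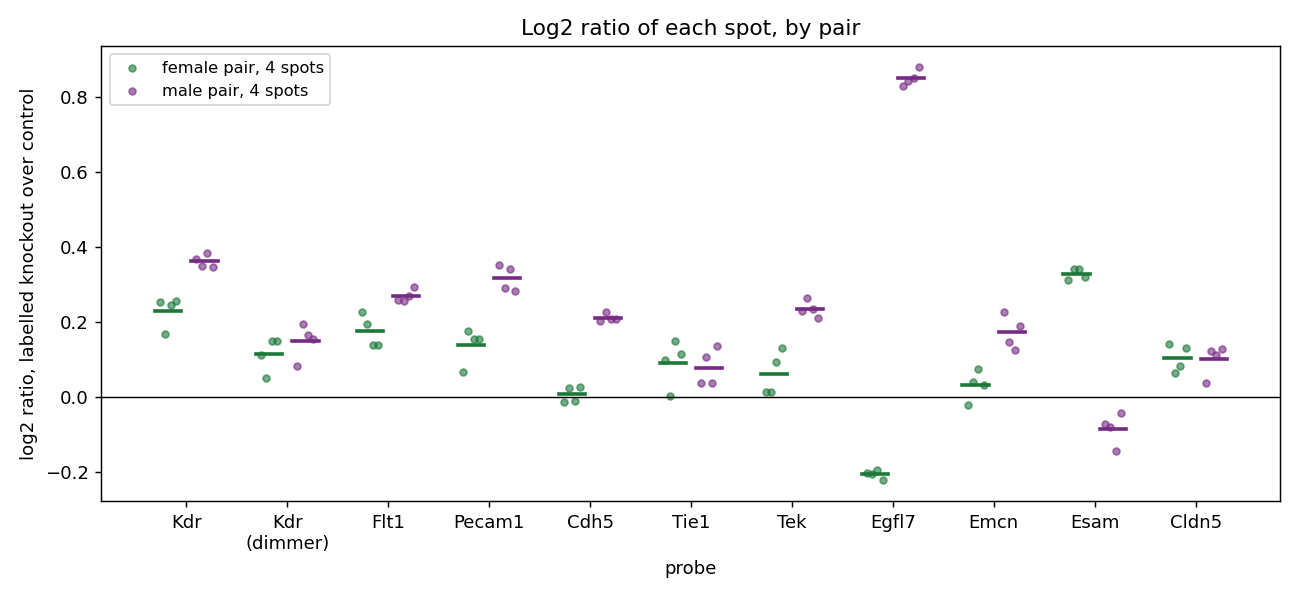
Log2 ratio of labelled knockout over control (y axis) at each of the 4 spots of every probe (x axis), in the female pair (green) and the male pair (purple), with a bar at the mean. All spots are above 0 in both pairs for 7 of 11 probes, a share not counted over all probes. Spots are repeats within an array. Egfl7 and Esam lie on opposite sides of 0 in the 2 pairs.

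Spot by spot, 7 of the 11 probes had all 4 spots above 0 in both pairs. The exceptions were Cdh5 and Emcn, which each had spots on both sides of 0 in the female pair, and Egfl7 and Esam. How many of all probes tested had every spot above 0 was not counted, and the spots of a probe are repeats within an array. Both RNAs labelled knockout were brighter than both controls at 9 of 11 probes, an arrangement found at 17.5% of all probes tested. The ratio was higher in the male pair than in the female pair for 8 of 11 probes, against 55.3% of all probes tested.

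**Figure D3:**
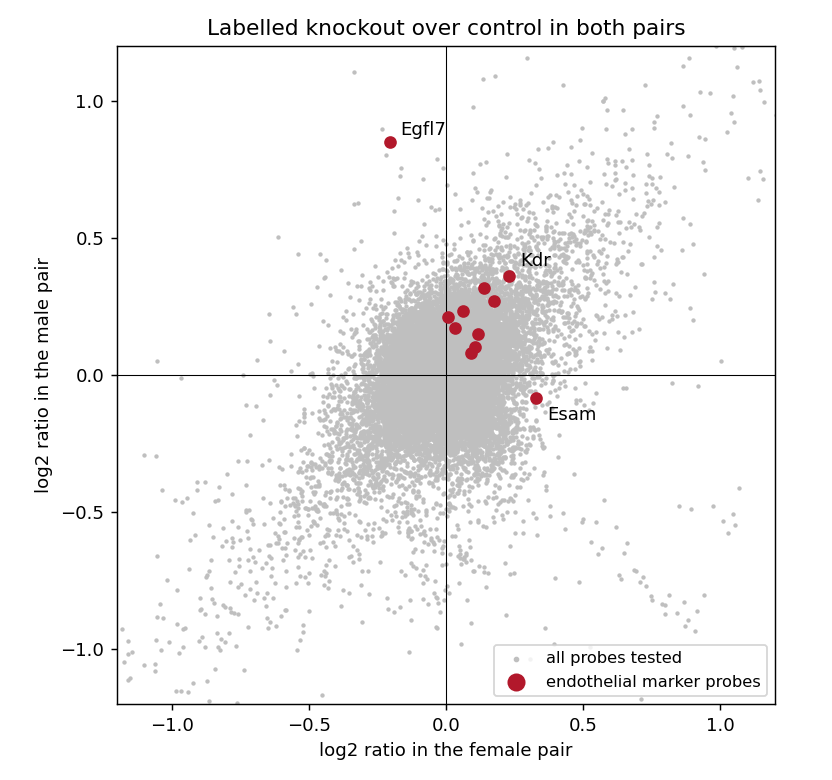
Log2 ratio of labelled knockout over control in the female pair (x axis) and in the male pair (y axis) for all probes tested that lie within the axes (grey) and the 11 endothelial marker probes (red). The 9 probes in the upper right quadrant have mean ratios from 0.086 to 0.30, inside the cloud of all probes; Egfl7 lies in the upper left and Esam in the lower right.

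Further endothelial genes were read by their brightest probe. Of 20 other endothelial genes tested, 1 rose, 0 fell and 19 did not pass, while 1.88% of all probes rose and 1.92% fell. In both pairs 18 were higher, against 27.6% of all probes. Before adjustment, 11 had a limma p under 0.05, all as higher, against 7.27% of all probes. The median log2 ratio was 0.22 (female pair 0.15, male pair 0.22). The gene that rose was S1pr1, the receptor through which sphingosine 1-phosphate acts on endothelial cells and lymphocytes. It had 12.45 and 12.47 in ureters labelled knockout, against 11.80 and 11.72 in controls, a mean log2 ratio of 0.71 ± 0.071 (SD, n = 2 pairs, limma adjusted p = 0.00327). The other 19 had mean log2 ratios between -0.0093 and 0.33. Over the 10 marker genes by brightest probe the same count was 8 higher in both pairs, with a median of 0.14.

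Of 11 endothelial transcription factors tested, 0 passed in limma, while 1.88% of all probes passed as higher and 1.92% as lower. In both pairs 9 were higher and 1 was lower (27.6% and 27.9% of all probes), and the median log2 ratio was 0.12. Before adjustment, 3 had p under 0.05 as higher, against 7.27% of all probes, and 1 as lower, against 6.57%. The 1 was Gata2, a factor of endothelial and blood progenitor cells that was named after its values were seen, with -0.29 (female pair) and -0.087 (male pair). The largest ratios were those of Sox17, a factor of arterial endothelium, with 0.39 (female pair) and 0.20 (male pair) (mean 0.30 ± 0.13, SD, n = 2 pairs, limma adjusted p = 0.110), and of the ETS factor Ets1 with 0.23 and 0.27 (mean 0.25 ± 0.028, limma adjusted p = 0.130). Of 12 arterial and venous genes, which share Aplnr with the list of other endothelial genes, 0 passed, and the median was 0.17. By unadjusted limma p under 0.05, 7 were higher and 0 lower, against 7.27% and 6.57% of all probes. In both pairs 10 were higher and 1 was lower, against 27.6% and 27.9% of all probes. Nrp2, a co-receptor for VEGF and semaphorins, had 0.31 and 0.30 (mean 0.30 ± 0.0044, limma adjusted p = 0.0673). Ephb4, the ephrin receptor of veins, had 0.23 and 0.36 (mean 0.29 ± 0.088, limma adjusted p = 0.0924). Of 3 lymphatic genes tested, 0 passed, and 1 (Flt4) had an unadjusted limma p under 0.05 as higher, against 7.27% of all probes. Flt4, the VEGF-C receptor, had 0.24 and 0.36 (mean 0.30 ± 0.086, limma adjusted p = 0.0832), Pdpn, which mesenchymal cells also express, had 0.047 and -0.14 (mean -0.047 ± 0.13, limma adjusted p = 0.933), and the list's median was -0.026.

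The ligands had no common direction. Of 10 VEGF, angiopoietin and related ligands, 0 rose, 1 fell and 9 did not pass, while 1.92% of all probes fell. In both pairs 3 were higher and 4 were lower (27.6% and 27.9% of all probes), with a median log2 ratio of 0.0045. The ligand that fell was Angpt4, an angiopoietin that binds TIE2, with 7.44 and 7.54 in ureters labelled knockout, against 8.01 and 7.87 in controls, a mean log2 ratio of -0.45 ± 0.17 (SD, n = 2 pairs, limma adjusted p = 0.0339). Angpt4 was the dimmest of the 10 ligands in every RNA, and its ratio was -0.70 with the processed signals. Its call was lost when arrays were centred on their median and not by loess (limma adjusted p = 0.146). Vegfa, the main ligand of the Kdr and Flt1 products, was not among the genes past the threshold, and its ratio was -0.039 (female pair) and 0.060 (male pair).

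**Figure D4:**
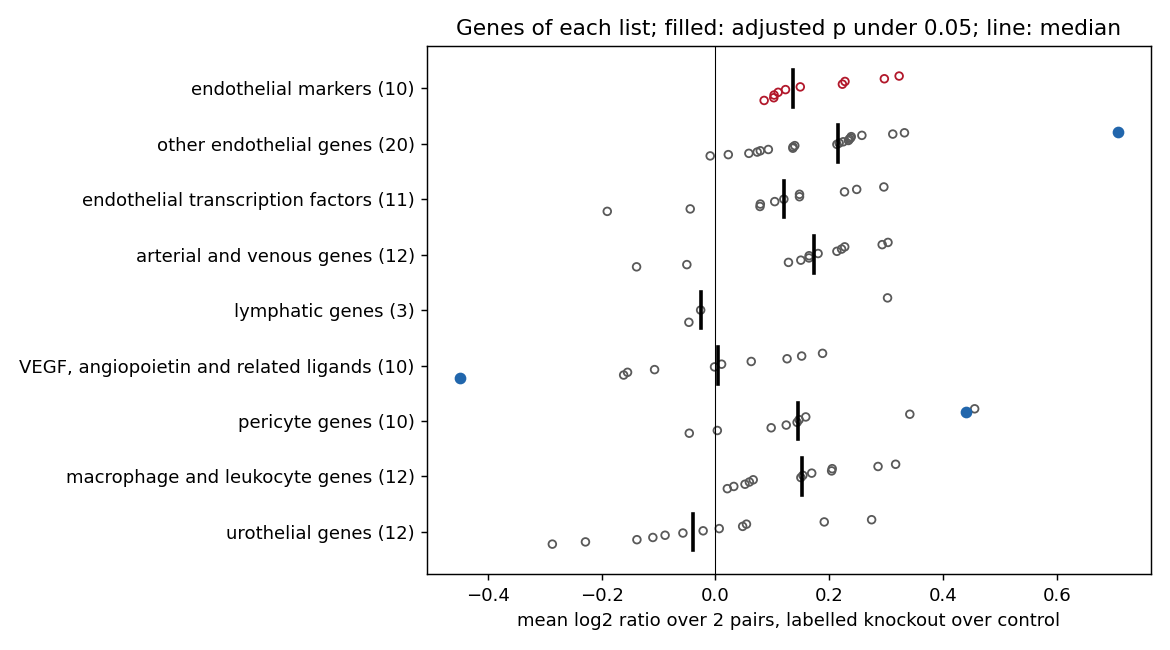
Mean log2 ratio of labelled knockout over control (x axis) of each gene, by its brightest probe, for the 10 marker genes (red, top) and 8 other lists (number tested in parentheses). Filled blue points passed an adjusted p of 0.05 and black lines are medians, which run from -0.039 for urothelial genes to 0.22 for other endothelial genes.

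The pericyte genes and the macrophage and leukocyte genes were also mostly higher in both pairs, and 1 of them passed the test. Of 10 pericyte genes, 1 rose and 0 fell, while 1.88% of all probes rose. In both pairs 8 were higher, against 27.6% of all probes, with a median log2 ratio of 0.15. Before adjustment, 3 had a limma p under 0.05, all as higher. The gene that rose was Kcnj8, the pore subunit of a potassium channel of pericytes, at 0.41 and 0.47 (mean 0.44 ± 0.044, SD, n = 2 pairs, limma adjusted p = 0.0185). Its call was lost with median centring (limma adjusted p = 0.112). Of 12 macrophage and leukocyte genes, 0 passed (5 had an unadjusted p under 0.05, all as higher, against 7.27% of all probes), 10 were higher in both pairs and the median was 0.15. The largest were Lyz2, a lysozyme of myeloid cells, at 0.32 in both pairs (mean 0.32 ± 0.00073, limma adjusted p = 0.0584), and Ptprc, the pan-leukocyte CD45, at 0.29 and 0.28 (mean 0.29 ± 0.012, limma adjusted p = 0.0830).

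The smooth muscle genes differed from this, and the urothelial genes had no common direction. No list of undifferentiated mesenchyme was read. Of 9 smooth muscle genes, 7 fell and 0 rose, against 1.92% and 1.88% of all probes, with a median log2 ratio of -2.62. Among them, Actg2 (smooth muscle gamma-actin) averaged -3.55 ± 0.36, Myh11 (smooth muscle myosin heavy chain) -3.44 ± 0.15, Cnn1 (calponin) -3.05 ± 0.27 and Acta2 (smooth muscle alpha-actin) -3.04 ± 0.29 (SD, n = 2 pairs each, with limma adjusted p of at most 5.46e-05). Of 12 urothelial genes, 0 passed, and the median was -0.039. By unadjusted limma p under 0.05, 2 were higher and 2 lower, against 7.27% and 6.57% of all probes. In both pairs 3 were higher and 4 lower, against 27.6% and 27.9% of all probes. Upk1b and Upk3a, which encode plaque proteins of the urothelium, had means of -0.29 ± 0.15 (limma adjusted p = 0.132) and 0.27 ± 0.041 (limma adjusted p = 0.0974). An array ratio is relative to the whole RNA. The part of the smooth muscle loss, and of the pericyte and leukocyte values, in the ratios of the endothelial markers was not tested.

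Processing changed the size of the members' ratios little. Over 14 other settings (12 for the dimmer Kdr probe) every member's mean log2 ratio stayed above 0, and no member passed an adjusted p of 0.05. Not all of these settings could move a ratio. Those that altered only outlier spots, filters, variance model, threshold or joining of probes left the ratio of a gene with 1 probe unchanged by construction. The brighter Kdr probe ran from 0.21 to 0.33, Flt1 from 0.22 to 0.26, Pecam1 from 0.22 to 0.25, Egfl7 from 0.30 to 0.33 and Tie1 from 0.086 to 0.12. The lowest adjusted p of any member was 0.0528, for the brighter Kdr probe in limma with an intensity trend. With the replicates left out in turn, the mean became the ratio of 1 pair, and Egfl7 at -0.20 (female pair) and Esam at -0.083 (male pair) then lay below 0.

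**Figure D5:**
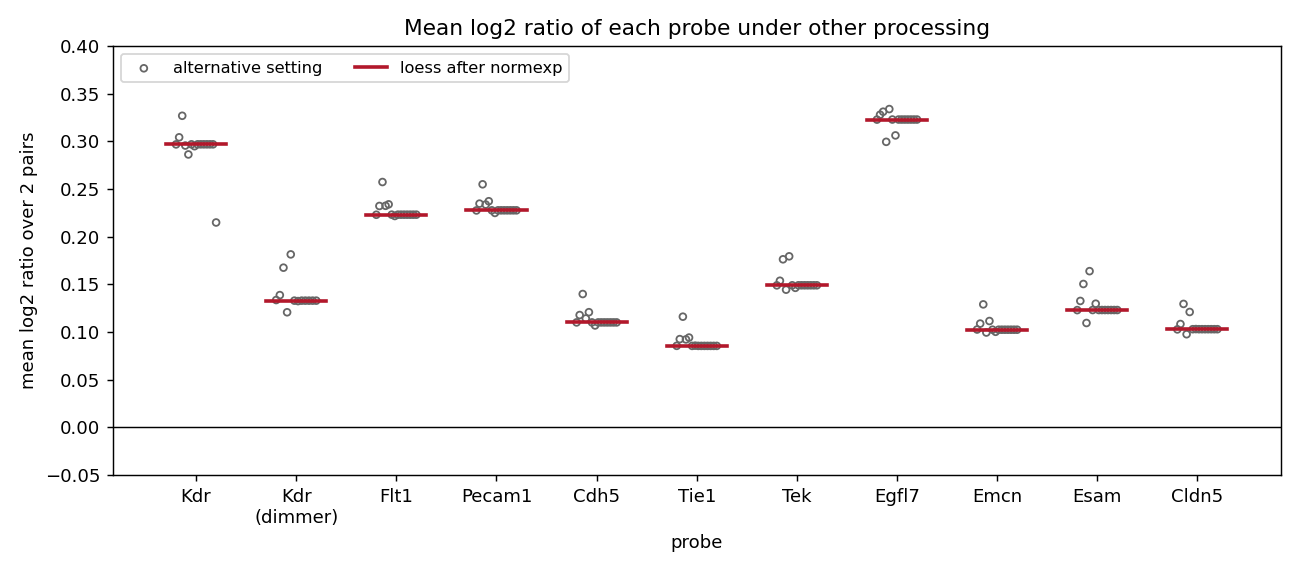
Mean log2 ratio of labelled knockout over control over the 2 pairs (y axis) for each probe (x axis), with normexp and loess (red bar) and under each other setting that keeps both pairs (open circles). All values lie above 0; the low circle for Kdr, at 0.21, is the mean over both of its probes.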

How the data were processed

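The data are 2 two-colour Agilent arrays, each with 1 RNA of ureters labelled knockout and 1 of control ureters, scanned and, per the submitters' processing notes, read by Agilent Feature Extraction 10.7.3.1. As deposited and per the file headers, the scanner files give unnormalized spot and local background intensities, and processed intensities, corrected by the scanner software for background and dye. A deposited value table, used as an alternative, holds 1 signed fold score per probe and array. The authors' steps behind it are not stated, but its log2 values correlated at 0.982 and 0.984 with the processed signals, turned to labelled knockout over control. Each column had a median of 1, exact values of 1 made up 33.7% and 34.1%, and how it was centred is unknown.

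Mean intensities were corrected with normexp (offset 50) and within-array loess was applied with control spots at weight 0. Non-uniform spots (186 and 223, none of a member) were dropped, the 4 spots of a probe averaged and ratios turned to labelled knockout over control. A probe was kept if over 0.5 of its spots stood well above background for either group on both arrays. Of 25967 kept, 25934 had a value on both arrays. All 11 member probes passed. Between 64.3% and 71.6% of spots per channel passed the scanner's background test, and 0 were saturated. Accessions were named through RefSeq (28328 probes, and 11101 kept the file's name). Intensities per RNA were taken after Aquantile scaling between arrays.

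Each probe was tested with limma 3.58.1 in R 4.3.3 (lmFit, eBayes) with Benjamini-Hochberg adjustment over 25934 probes. With 1 residual and 5.65 prior degrees of freedom, p-values rest mainly on the pooled spread and measure only the spread between these samples, which may be technical. On simulated data the procedure found nearly all changed probes, and the share of false calls came out above the nominal rate. All changes planted there were larger than the mean change of any member. How often a change of a member's size would be found was therefore not examined. Each ratio is within an array and so already paired. The arrays shared 1 slide and 1 scan.

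The members and lists were chosen with earlier results of these data known. All members, Tbx2, Tbx3 and Tbx18 are named, and of every other list up to 4 genes past the threshold, or else the 2 with the largest mean change, by brightest probe. A gene taken by this rule is left out here together with its list. Vegfa was named besides, after its values were seen, as were the promoters and microRNA printed. Alternatives covered background correction, dye normalization, pixel summary, filters, joining of probes, variance model, threshold and replicates.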

Additional observations from a re-analysis of the deposited data

Results flagged for a closer look

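Egfl7 moved in opposite directions in the 2 pairs. The male minus the female log2 ratio was 1.06, from 0.85 in the male and -0.20 in the female pair. A gap at least as wide was seen at 0.22% of all probes tested. Esam did so the other way round, with a male minus female difference of -0.41 (-0.083 in the male and 0.33 in the female pair), and 3.37% of all probes had a gap at least as wide. Among the genes that the naming rule takes from other lists, Pdpn had a difference of -0.19. Genes outside that rule had wider gaps with opposite signs, such as Upk2 at -0.20 in the male and 0.31 in the female pair, chosen here after its values were seen. The median of the ligand list differed by 0.12 (0.063 in the male and -0.059 in the female pair), and the median of the urothelial list by -0.10 (-0.080 in the male and 0.024 in the female pair). None of these differences was tested, since each sex has 1 pair, and sex cannot be told apart from dye orientation.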

How the results depend on the processing

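The count of member probes past the threshold was 0 under every setting but the wider threshold of 0.1, where it was 1, the brighter Kdr probe at a log2 ratio of 0.30. The count higher in both pairs was 9 (8 of 10 with 1 value per gene), and 10 in either pair alone. The median log2 ratio ran from 0.12 to 0.18 over settings with both pairs, and was 0.11 without the male pair (replicate 2) and 0.21 without the female pair (replicate 1). Leaving out 1 pair turned the sign of Egfl7 (-0.20 to 0.85 over the 2 pairs), Esam (-0.083 to 0.33) and Pdpn (-0.14 to 0.047). Pdpn also turned with the mean of its probes (0.0028). With 1 pair left there is no test.

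Angpt4 and Kcnj8 lost their call with the processed signals (limma adjusted p of 0.0528 and 0.0512), median centring (0.146 and 0.112) and the deposited value table (0.0845 and 0.0764). Nrp2 and Lyz2 gained a call with the median of pixels (0.0418 and 0.0364), no filter on dim probes and an intensity trend, Ptprc with the median of pixels (0.0427), and Upk3a with an intensity trend (0.0456). S1pr1 kept its call in every setting with both pairs. Over all probes, 487 were called higher and 499 lower, against 176 and 202 with median centring, 162 and 186 with the deposited table and 305 and 302 with the processed signals. The cause was not tested. No separate paired analysis was possible because each array's ratio already pairs the RNAs of 1 replicate number.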

Other observations

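Some further genes, chosen after their values were seen, bear on vessels. They are among the largest ratios of the pericyte and other endothelial lists. The lowest mean log2 ratios of these lists were -0.046 for Mcam and -0.0093 for Ramp2. Abcc9, whose product joins that of Kcnj8 in a potassium channel of pericytes and vascular muscle, had log2 ratios of 0.27 (female pair) and 0.64 (male pair) (mean 0.46 ± 0.26, SD, n = 2 pairs, limma adjusted p = 0.0620). Rgs5, a regulator of G-protein signals in pericytes, had 0.49 and 0.19 (mean 0.34 ± 0.21, limma adjusted p = 0.113). Ptprb, the endothelial phosphatase that acts on TIE2, had 0.21 and 0.41 (mean 0.31 ± 0.14, limma adjusted p = 0.0971). Vwf, the clotting factor stored by endothelial cells, had 0.47 and 0.20 (mean 0.33 ± 0.19, limma adjusted p = 0.108).

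The embryonic globins Hbb-y and Hbb-bh1 had opposite signs in the pairs, with 0.11 and 0.20 in the female pair and -0.39 and -0.51 in the male pair. The embryonic globin Hba-x had 0.091 (female pair) and 0.12 (male pair). The adult globin Hba-a1 had 0.53 (female pair) and 0.088 (male pair), and the adult Hbb-bt had 0.64 and -0.048. None of these globins passed in limma (lowest adjusted p = 0.250, for Hba-a1). Globin genes are related in sequence, and whether their probes read each other's RNA was not tested.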
